A study of Mus musculus with 18 samples.

Results

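The 10 genes described here are Osmr, Il6st, Lifr, Jak2, Stat3, Socs3, Cebpd, Bcl3, Tnfrsf12a and Tnfrsf1a, out of 55291 gene symbols measured in each of 18 RNA-seq libraries. They were chosen by symbol, for their part in reactive astrocytes, and selected on a large rise of Tnfrsf12a FPKM and counts in these same data. For that reason the fold changes of all 10 genes between kainic acid (KA) and AAV control in the immunoprecipitated RNA, and every fold change of Tnfrsf12a that involves KA, are given as descriptions without a test. The KA effect in that RNA minus the one in whole RNA, taken against AAV control, holds the same comparison. Its p-values are therefore descriptions too.

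The data come from mice in which mesial temporal lobe epilepsy was modelled. Male C57BL/6J mice received at 6 weeks of age an AAV (AAVDJ-GfaABC1D-EGFP-Rpl10a) in the CA3 region of the right hippocampus. The GfaABC1D promoter drives an EGFP-tagged ribosomal protein in astrocytes, so that RNA on tagged ribosomes can be pulled down with anti-GFP antibody (IP) and compared with the RNA of the whole homogenate (input). All 3 groups carried the AAV. AAV control tissue was collected 2 weeks after the AAV. Mice of the KA group were given KA in the dentate gyrus 2 weeks after the virus, with tissue taken 14 days after KA. KA and AAV control samples thus also differed in time since the virus, in age and in a further injection. In their comparison these effects cannot be told apart from that of KA. The PBS group received PBS in place of KA. Each group held 3 samples, each pooled from 3 to 4 right hippocampi, and each sample gave an IP and an input library. The tag labels the astrocytes that the virus reached, while input holds RNA of the whole right hippocampus. IP and input can thus differ in region as well as in cell type. In these bulk libraries fewer cells of a type and less RNA per cell cannot be told apart.

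The cytokines of the interleukin family that includes oncostatin M (OSM) and leukemia inhibitory factor (LIF) act through receptors that share the signal chain gp130, the product of Il6st. Osmr and Lifr encode the chains that pair with gp130. Receptor-bound kinases such as JAK2 phosphorylate STAT3, which enters the nucleus and switches on targets such as Socs3, a feedback inhibitor of the receptors, and Cebpd, a C/EBP transcription factor. Bcl3 encodes a nuclear member of the IkB family that binds NF-kB subunits. Tnfrsf12a encodes Fn14, the receptor of the cytokine TWEAK (the product of Tnfsf12), and Tnfrsf1a encodes the TNF receptor TNFR1. STAT3 in astrocytes is known for its role in reactive gliosis after injury.

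The 10 genes lie on 8 chromosomes of the mouse assembly GRCm38. In the GENCODE annotation, Osmr spans chr15:6813577-6874969 and Lifr chr15:7090614-7197489, and Stat3 (chr11:100885098-100939540) and Socs3 (chr11:117966079-117970047) share chromosome 11. Il6st spans chr13:112464070-112510086, Jak2 chr19:29251828-29313080, Cebpd chr16:15887286-15891031, Bcl3 chr7:19808462-19822770, Tnfrsf12a chr17:23675445-23677468 and Tnfrsf1a chr6:125349362-125362484. Il6st, Lifr, Jak2, Cebpd and Tnfrsf1a are on the plus strand and the others on the minus strand. All 10 are protein-coding. Another gene shares 562 of the 3746 exon bases of Cebpd (Spidr) and 161 of the 2475 exon bases of Bcl3 (Gm16175), and Stat5a shares 72 of 9527 with Stat3. Whether the counting used strand is not given in the sources used here, so reads in these shared bases cannot be assigned with certainty. The FPKM of Spidr was at most 0.898 and that of Gm16175 at most 0.435 in any library.

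Of the 10 genes, 9 matched the promoter table (all but Cebpd), and their sequence was searched for 4 motifs on both strands in the 250 bases before the RefSeq start. The motifs were STAT (TTCNNNGAA), C/EBP (TTGCNNAA), AP-1 (TGANTCA) and NF-kB. Only 2 of the 9 genes held a match, Socs3 and Tnfrsf1a, both to the STAT motif, which 7.02% of 32851 promoters held in windows of the same length. The C/EBP motif was in 9.56% of them, AP-1 in 6.75% and NF-kB in 5.93%. The windows of these 2 genes are shown for their match and that of Tnfrsf12a because it had the largest fold change and no match to any of the 4. Sequences are from RefSeq on GRCm38.p6, written 5′ to 3′ on the strand of the gene, with the STAT match in capitals. They cover chr11:117969367-117969616 on the minus strand, chr6:125349473-125349722 on the plus strand and chr17:23677450-23677699 on the minus strand.
Socs3: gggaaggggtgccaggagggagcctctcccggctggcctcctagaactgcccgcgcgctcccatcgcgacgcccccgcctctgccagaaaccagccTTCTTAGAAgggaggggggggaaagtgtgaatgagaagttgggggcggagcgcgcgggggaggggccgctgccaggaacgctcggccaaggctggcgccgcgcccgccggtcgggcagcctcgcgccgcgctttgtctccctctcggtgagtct
Tnfrsf1a: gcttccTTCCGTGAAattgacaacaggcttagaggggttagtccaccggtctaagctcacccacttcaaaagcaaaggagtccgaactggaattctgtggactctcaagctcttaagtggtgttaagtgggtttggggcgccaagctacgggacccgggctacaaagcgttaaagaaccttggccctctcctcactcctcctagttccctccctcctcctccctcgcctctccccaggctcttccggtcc
Tnfrsf12a: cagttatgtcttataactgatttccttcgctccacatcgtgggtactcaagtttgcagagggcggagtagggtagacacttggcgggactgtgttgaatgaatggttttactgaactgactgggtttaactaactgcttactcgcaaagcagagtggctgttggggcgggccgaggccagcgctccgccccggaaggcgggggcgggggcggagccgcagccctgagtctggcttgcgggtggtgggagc
In Socs3 the match lies from base -154 to -146 relative to the start, and in Tnfrsf1a from base -244 to -236. The RefSeq starts differ from those of GENCODE above: they lie 681 bases inside the GENCODE span of Socs3, 361 inside that of Tnfrsf1a and 19 inside that of Tnfrsf12a, so the first 2 windows lie within the GENCODE gene. Among the genes without a match, the start of Osmr lies 656 bases inside and the 2 starts of Lifr 38958 and 49928 bases inside. Their windows thus also lie within the GENCODE gene. A match describes the letters of the window and is not evidence of binding.

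The total count of a library ranged from 7991681 to 16032180. The astrocyte label was checked with 10 marker genes, whose summed FPKM was 10.9 to 12.3 times higher in IP than in input in the AAV control samples, 7.80 to 12.8 times in the PBS samples and 4.51 to 5.62 times in the KA samples. The 10 include Gfap, which itself rose with KA. In KA #1 Gfap was 3377 of the 6461 FPKM summed in IP and 376 of 1431 in input. In AAV control #1 it was 622 of 7151 in IP and 29.2 of 595 in input. These ratios thus mix the level of Gfap with enrichment, and ratios without Gfap were not taken. Markers of other cells also moved with KA. In input, the summed FPKM of 10 microglia markers was 1168 to 1602 in KA libraries, 98.1 to 196 in AAV control and 133 to 153 in PBS. In IP the microglia sum was 39.7 to 56.6 in KA, 13.0 to 26.8 in AAV control and 20.6 to 37.0 in PBS, and the sum of 6 oligodendrocyte markers was 1279 to 2439 in KA, 247 to 1037 in AAV control and 277 to 550 in PBS. The summed IP to input ratio of 8 neuron markers was 0.363 to 0.433 in KA, 0.126 to 0.140 in AAV control and 0.116 to 0.207 in PBS, and that of the 6 oligodendrocyte markers 1.78 to 2.64, 0.323 to 1.16 and 0.402 to 1.03. In the other direction, the ratio of the microglia markers was 0.0327 to 0.0353 in KA, 0.132 to 0.152 in AAV control and 0.135 to 0.261 in PBS, and that of 2 markers of oligodendrocyte precursors 0.265 to 0.366, 1.07 to 1.42 and 0.695 to 0.858. None of these markers was at 0 in all 3 libraries of a group. The part of these cells in the values below was not tested. Samples #1 and #2 of KA and AAV control were sequenced in one run, samples #3 in another and PBS in a run of its own. For PBS, the effects of run and of group cannot be told apart. AAV control #3 stood apart from the other AAV control samples in several of the 10 genes, and values without it are given where it matters. Its IP library also had the highest oligodendrocyte sum of that group (1037, against 247 and 316). Its sum of 4 pericyte and smooth muscle markers in IP was 46.0, against 10.1 and 10.3, and its astrocyte sum 9892, against 7151 and 6597. The part of these cells in the values of this sample was not tested.

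**Figure D1:**
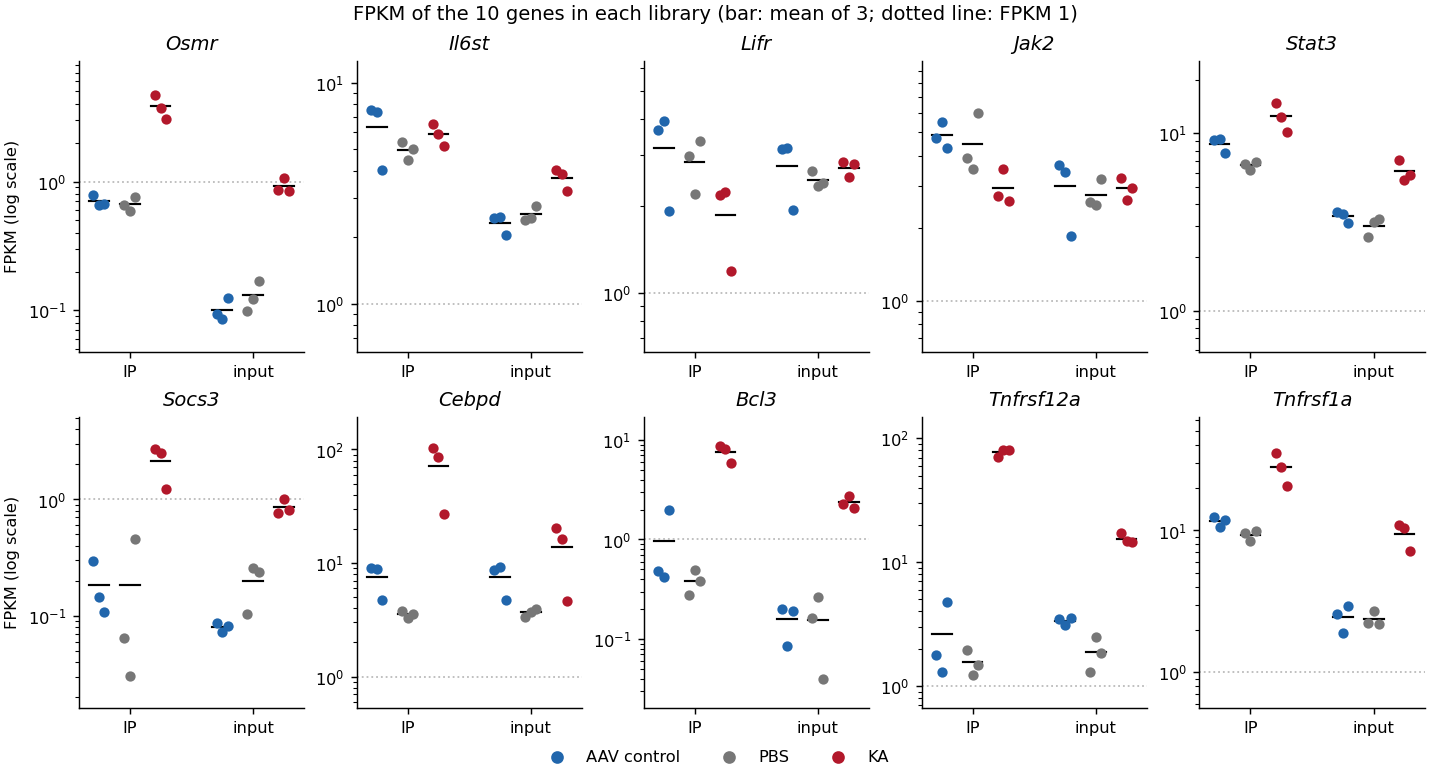
FPKM of the 10 genes in each library on a log scale, with IP on the left and input on the right of each panel, points for the 3 samples of a group and a bar at their mean. The KA points of Osmr, Stat3, Socs3, Bcl3, Tnfrsf12a and Tnfrsf1a lie above all control points in both IP and input, and those of Cebpd do so in IP.

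Tnfrsf12a, the TWEAK receptor gene, had the highest KA levels in IP together with Cebpd. Its FPKM in KA IP libraries was 71.4, 81.0 and 80.0, a mean of 77.5 ± 5.29 (SD, n = 3). In AAV control IP libraries it was 1.79, 1.30 and 4.81, and in PBS IP libraries 1.94, 1.22 and 1.48. The KA values were thus far above every control value, and AAV control #3 was the highest control. On the log2 scale KA exceeded AAV control by 4.86 ± 0.52 (SE), and by 5.76 without AAV control #3. Against PBS the log2 difference was 5.64 ± 0.24. In input the gene stood at 17.1, 14.9 and 14.5 FPKM in KA, 3.50, 3.09 and 3.54 in AAV control and 1.29, 2.50 and 1.83 in PBS, again without overlap. The log2 difference in input was 2.19 ± 0.16 against AAV control and 3.03 ± 0.19 against PBS.

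In the control samples the IP level of Tnfrsf12a lay on either side of its input level. The IP to input ratio of its FPKM was 0.510, 0.420 and 1.36 in the 3 AAV control samples and 1.51, 0.489 and 0.807 in the PBS samples. Fitted over the 3 samples, the log2 fold change of IP over input was -0.14 ± 0.51 in AAV control (edgeR adjusted p = 0.853) and -0.12 ± 0.31 in PBS (edgeR adjusted p = 0.754). Without AAV control #3 the AAV control value was -0.93 (edgeR adjusted p = 0.0071). In the KA samples the ratio was 4.18, 5.44 and 5.53. The 3 KA ratios thus lay above all 6 control ratios.

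Tnfrsf1a, the TNFR1 gene, was enriched in IP in every sample and was higher in KA in both kinds of library. Its FPKM in IP was 35.4, 28.1 and 20.5 in KA, 12.4, 10.6 and 11.8 in AAV control and 9.56, 8.45 and 9.89 in PBS. In input it was 10.9, 10.3 and 7.19 in KA, 2.56, 1.90 and 2.91 in AAV control and 2.23, 2.69 and 2.20 in PBS. The lowest KA library was sample #3 in both kinds, and it still exceeded every control. In IP the log2 fold change was 1.31 ± 0.20 against AAV control and 1.58 ± 0.19 against PBS (edgeR adjusted p = 2.3e-04). In the input libraries it was 1.92 ± 0.23 against AAV control (edgeR adjusted p = 0.0041) and 1.97 ± 0.17 against PBS (edgeR adjusted p = 2.3e-05). Its IP to input ratio ranged from 2.72 to 3.25 in KA, 4.04 to 5.57 in AAV control and 3.14 to 4.49 in PBS.

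Osmr, the gene of the OSM receptor chain, was higher in KA in both kinds of library. Its FPKM in IP was 4.69, 3.71 and 3.07 in KA, 0.792, 0.656 and 0.664 in AAV control and 0.654, 0.593 and 0.755 in PBS. The input value was 0.862, 1.06 and 0.842 in KA, 0.093, 0.0865 and 0.125 in AAV control and 0.0986, 0.123 and 0.170 in PBS. Every KA value was above every control value of its kind, and the control libraries were below FPKM 1. Because the study's filter of FPKM above 1 in every compared library removed Osmr, Socs3 and Bcl3, their fold changes come from a filter on counts that was chosen after this was seen. With it the log2 fold change of Osmr in IP was 2.54 ± 0.20 against AAV control and 2.67 ± 0.20 against PBS (edgeR adjusted p = 1.0e-06). In that PBS comparison the count filter moved the fold changes of all shared genes up by a median of 0.16 on the log2 scale. In input the log2 fold change of Osmr was 3.12 ± 0.27 (edgeR adjusted p = 4.5e-04) against AAV control and 2.78 ± 0.24 (edgeR adjusted p = 3.9e-06) against PBS.

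Osmr had the highest fitted fold change of IP over input among the members tested in AAV control and in PBS. Its IP to input ratio was 8.52, 7.59 and 5.32 in AAV control, 6.64, 4.83 and 4.43 in PBS and 5.44, 3.51 and 3.64 in KA. The log2 fold change of IP over input was 2.90 ± 0.31 in AAV control, 2.40 ± 0.29 in PBS and 2.35 ± 0.16 in KA, each with an edgeR adjusted p of at most 3.2e-04. The difference between the KA effect in IP and that in input was -0.56 ± 0.30 with the AAV control baseline (edgeR adjusted p = 0.297), so a difference between the 2 kinds of library was not shown.

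Il6st and Lifr, the genes of gp130 and the LIF receptor chain, had small differences in IP. In IP, Il6st had an FPKM of 6.50, 5.85 and 5.15 in KA, 7.54, 7.36 and 4.03 in AAV control and 5.40, 4.45 and 5.03 in PBS, and the groups overlapped. Its log2 fold change in IP was -0.04 ± 0.21 against AAV control and 0.23 ± 0.16 against PBS (edgeR adjusted p = 0.271). In input, the KA values of 4.02, 3.86 and 3.23 lay above the AAV control values of 2.45, 2.46 and 2.05 and the PBS values of 2.39, 2.45 and 2.77. There the log2 fold change was 0.68 ± 0.13 against AAV control (edgeR adjusted p = 0.024, and 0.0066 to 0.159 when 1 library was left out) and 0.53 ± 0.10 against PBS (edgeR adjusted p = 0.0036). The KA effect on Il6st was smaller in IP than in input by 0.70 ± 0.24 with the AAV control baseline, which did not pass (edgeR adjusted p = 0.079). It passed the adjusted threshold with the replicate block (0.0092), with sequencing run as a covariate (0.014) and without AAV control #3 (0.0023), always under the fold threshold.

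Lifr stood in IP at 2.18, 2.23 and 1.19 FPKM in KA, 3.65, 3.95 and 1.92 in AAV control and 2.98, 2.20 and 3.35 in PBS. The groups overlapped through AAV control #3 and PBS #2. The log2 fold change was -0.71 ± 0.28 against AAV control and -0.61 ± 0.22 against PBS (edgeR adjusted p = 0.047, and 0.103 with the count filter). In input Lifr was 2.52 to 2.84 in KA, 1.93 to 3.17 in AAV control and 2.34 to 2.64 in PBS, with log2 fold changes of 0.01 ± 0.19 and 0.13 ± 0.13 that did not pass the test. Its IP to input ratio was below 1 in all 3 KA samples, from 0.429 to 0.883, and 0.942 to 1.40 in the 6 control samples.

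Jak2, the kinase gene, was the only one of the 10 whose KA libraries lay wholly below both controls in IP. Its FPKM there was 2.73, 3.51 and 2.59 in KA, 4.72, 5.53 and 4.31 in AAV control and 3.91, 3.53 and 6.02 in PBS. The gap between the highest KA and the lowest PBS library was narrow. The log2 fold change was -0.66 ± 0.18 against AAV control and -0.59 ± 0.21 against PBS (edgeR adjusted p = 0.046, and 0.112 with the count filter). In the input libraries it was 2.63 to 3.23 in KA, 1.85 to 3.66 in AAV control and 2.49 to 3.19 in PBS, with log2 fold changes of 0.01 ± 0.24 and 0.09 ± 0.15 that did not pass the test.

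Stat3 was higher in KA than in each control, by 1.43 to 2.02 times in mean FPKM. Its FPKM in IP was 14.9, 12.4 and 10.1 in KA, 9.15, 9.29 and 7.74 in AAV control and 6.71, 6.21 and 6.91 in PBS. The input value was 7.05, 5.46 and 5.81 in KA, 3.61, 3.52 and 3.11 in AAV control and 2.61, 3.16 and 3.28 in PBS. All KA libraries lay above all controls in both kinds, though the lowest KA IP library, #3, was close to the highest AAV control. The log2 fold change in IP was 0.57 ± 0.16 against AAV control and 0.91 ± 0.17 against PBS (edgeR adjusted p = 0.0027). In input it was 0.84 ± 0.14 against AAV control (edgeR adjusted p = 0.015, and 0.0043 to 0.102 when 1 library was left out) and 1.01 ± 0.12 against PBS (edgeR adjusted p = 1.8e-04). Stat3 was higher in IP than in input in each group, with log2 fold changes of IP over input of 1.50 ± 0.14 in AAV control, 1.27 ± 0.15 in PBS and 1.24 ± 0.14 in KA, each with an edgeR adjusted p of at most 4.6e-04. The KA effect in IP differed from that in input by -0.26 ± 0.19 (edgeR adjusted p = 0.423) with the AAV control baseline and by -0.11 ± 0.19 (edgeR adjusted p = 0.716) with the PBS baseline, where the count filter turned the sign (0.10) and shifted all shared genes up by a median of 0.21.

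Socs3, the feedback inhibitor, was near its floor in controls. In KA IP libraries it had 88, 75 and 39 counts (2.73, 2.49 and 1.23 FPKM), in AAV control 8, 4 and 4 counts and in PBS 3, 1 and 14 counts. In input it had 22, 28 and 24 counts in KA, 2, 2 and 3 in AAV control and 3, 8 and 7 in PBS. The KA libraries were above all controls in both kinds. In IP the fitted log2 fold change was 3.65 ± 0.46 against AAV control and 3.81 ± 0.60 against PBS (5.35 without PBS #3). In the input libraries it was 3.34 ± 0.42 and 2.06 ± 0.40. Socs3 passed the count filter only through its KA libraries, so these differences are given without a test. Within the KA samples it was higher in IP than in input by 1.59 ± 0.30 on the log2 scale (edgeR adjusted p = 0.0035), and this did not pass without KA #1 (0.077) or without KA #2 (0.053).

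Cebpd, the C/EBP delta gene, was higher in KA by more in IP than in input. Its FPKM in IP was 103, 85.1 and 26.8 in KA, 9.04, 8.82 and 4.73 in AAV control and 3.78, 3.27 and 3.53 in PBS. The input value was 20.3, 16.3 and 4.61 in KA, 8.76, 9.23 and 4.69 in AAV control and 3.35, 3.72 and 3.96 in PBS. Sample #3 was the lowest of its group in both kinds for KA and for AAV control, and in IP the groups did not overlap while in input KA #3 overlapped with AAV control. In IP the log2 fold change was 3.28 ± 0.46 against AAV control and 4.30 ± 0.40 against PBS (edgeR adjusted p = 5.0e-05). In input it was 0.85 ± 0.45 against AAV control, which did not pass the test (edgeR adjusted p = 0.386, but 0.038 with sequencing run as a covariate, under the fold threshold), and 1.86 ± 0.38 against PBS (edgeR adjusted p = 0.0053). Within the first sequencing run the log2 CPM of KA exceeded that of AAV control by 3.51 in IP and 1.04 in input, and within the second, with 1 sample a group, by 2.70 in IP and -0.09 in input.

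The IP to input ratio of Cebpd was near 1 in the controls, at 1.03, 0.956 and 1.01 in AAV control and 1.13, 0.879 and 0.892 in PBS. In KA it was 5.06, 5.23 and 5.82, so the ratio of sample #3 was as high as those of the others although its level was lower. The log2 fold change of IP over input was 2.59 ± 0.56 in KA (edgeR adjusted p = 0.0086), against 0.14 ± 0.29 in AAV control (edgeR adjusted p = 0.735) and 0.08 ± 0.17 in PBS (edgeR adjusted p = 0.702). The KA value did not pass without KA #1 (0.053) or KA #2 (0.077). The KA effect was larger in IP than in input by 2.45 ± 0.71 with the AAV control baseline (edgeR adjusted p = 0.041, and 2.0e-06 with the replicate block) and by 2.43 ± 0.62 with the PBS baseline (edgeR adjusted p = 0.011). The first did not pass without KA #1 (0.089), KA #2 (0.145), AAV control #1 (0.129) or AAV control #2 (0.13), or with limma-voom (0.051), and the second did not pass without PBS #3 (0.057). Neither the fits with a sample left out nor the one with limma-voom blocked on the homogenate that IP and input of a sample share. The same differences for Tnfrsf12a were 2.68 ± 0.53 and 2.59 ± 0.29, and the first was 3.51 without AAV control #3.

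**Figure D2:**
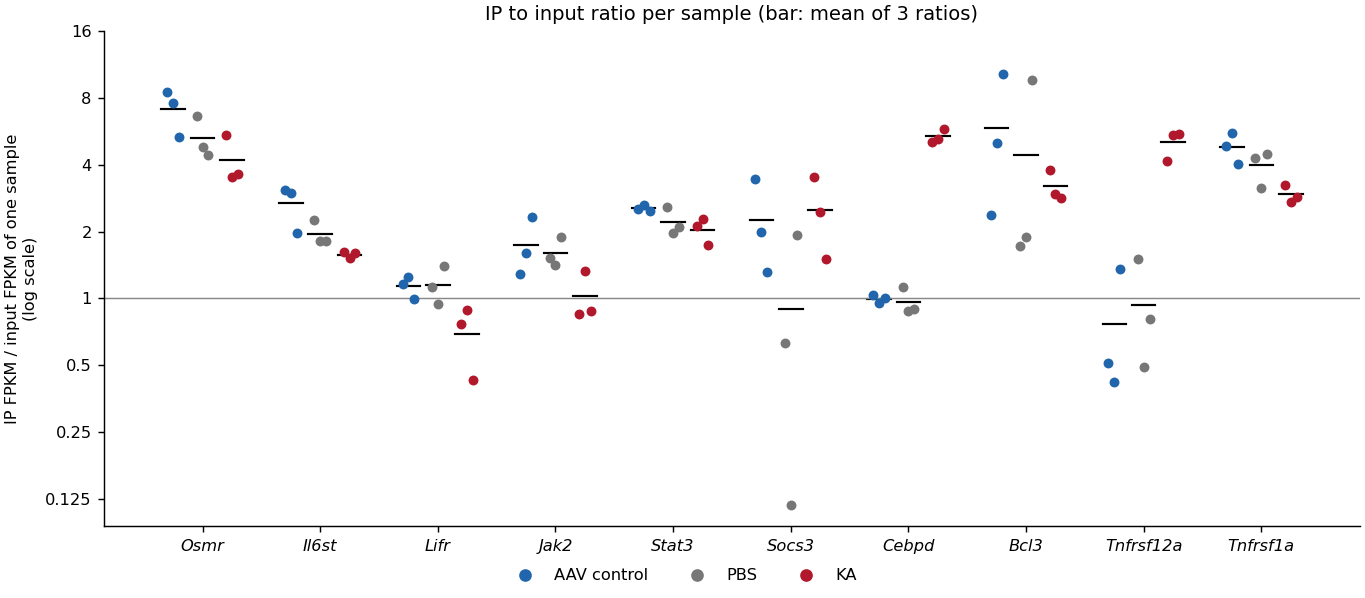
Ratio of IP to input FPKM in each of the 9 samples for the 10 genes, on a log scale, with a bar at the mean of 3 samples. The ratios of Cebpd and Tnfrsf12a are at most 1.51 in controls and 4.18 to 5.82 in KA, whereas those of Osmr and Tnfrsf1a are at least 2.72 in every sample.

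Bcl3, the IkB family gene, had 240, 210 and 159 counts in KA IP libraries (8.71, 8.15 and 5.86 FPKM), 11, 10 and 63 in AAV control and 11, 14 and 10 in PBS. In input it had 56, 65 and 52 counts in KA, 4, 2 and 6 in AAV control and 4, 7 and 1 in PBS. AAV control #3 was the highest control but remained below KA. The log2 fold change in IP was 2.97 ± 0.55 against AAV control, or 4.22 without AAV control #3, and 4.45 ± 0.31 against PBS. In the input libraries it was 3.81 ± 0.38 against AAV control and 3.84 ± 0.43 against PBS, the latter 4.43 without PBS #2. In the comparison with PBS in IP and in both input comparisons Bcl3 passed the count filter through its KA libraries, so these differences also have no test. In KA samples it passed the FPKM filter and was higher in IP than in input by 1.88 ± 0.17 (edgeR adjusted p = 1.4e-04), with ratios of 3.80, 2.96 and 2.84.

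**Figure D3:**
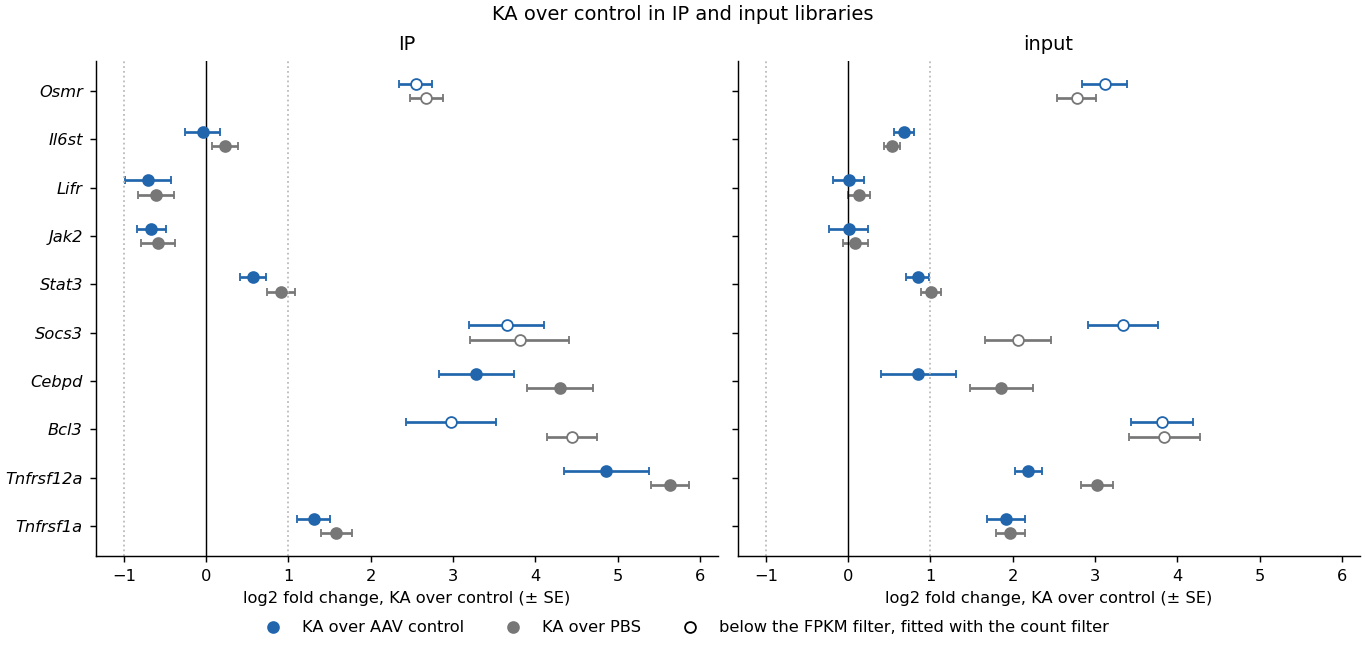
Log2 fold change of KA over AAV control (blue) and over PBS (grey) in IP and in input, with the standard error as bars and open points for genes fitted with the count filter. Tnfrsf12a has the largest values in IP, Il6st, Lifr and Jak2 lie between -0.71 and 0.23 there, and Bcl3, Osmr and Socs3 are at or above 2.06 in input.

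The study's 2 thresholds, an adjusted p under 0.05 together with a log2 change of 1 or more in size, were applied to the members that passed the FPKM filter, leaving out Tnfrsf12a wherever KA enters. Against PBS in IP, 2 of 6 were called higher (Cebpd and Tnfrsf1a), where 8.08% of 9847 tested genes were. In input, 1 of 6 was called higher against AAV control (Tnfrsf1a, with 2.52% of 10809 tested genes) and 3 of 6 against PBS (Tnfrsf1a, Cebpd and Stat3, with 4.26% of 10849). For KA against AAV control in IP, used to choose the genes, no call is given. There Tnfrsf12a, Cebpd and Tnfrsf1a had a log2 fold change above 1, and of all 9729 tested genes 6.39% were called higher, from which nothing is read. Stat3 lay at the fold threshold: its call in input was lost with the count filter (0.99) and one was gained in IP (1.06). None of the 6 was called lower in these 3 comparisons, where 9.34% of tested genes were in IP against PBS and 0.185% and 1.09% in input against AAV control and PBS. The share called lower in IP against AAV control was 5.22%. Past the count filter, where Osmr could be tested, 8.04% and 11% of genes were called higher in IP and 4.76% and 8.09% in input. All of these comparisons use the same KA libraries and are not independent.

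The median log2 fold change of the 7 genes that passed the FPKM filter, beside that of all tested genes, was 0.57 and -0.02 in IP against AAV control and 0.91 and -0.01 against PBS. These medians in input were 0.84 and -0.03 against AAV control and 1.01 and 0.01 against PBS. These 7 include Tnfrsf12a, whose rise was used to choose the genes, and exclude the 3 genes that were too low in control libraries. KA and control groups did not overlap, with KA higher, for 7 of the 10 genes in IP against each control, for 7 in input against AAV control and for 8 against PBS. Among genes past the count filter the share without overlap and higher in KA was 15.9% and 18.7% in IP and 15% and 20.8% in input. Each of the member counts includes Tnfrsf12a, whose rise was used to choose the genes, and Socs3 and Bcl3, which were low in control libraries. KA against AAV control in IP was also the comparison used to choose the genes. The member counts are therefore descriptions, and nothing is read from them beside these shares. Jak2 was the 1 of 10 wholly below control in IP, as were 23.2% of genes against AAV control and 30.4% against PBS.

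No member passed the test between PBS and AAV control. With edgeR 0 of 7 passed in IP and 0 of 7 in input, as did 0% of all genes (0 of 10667 and 0 of 10924, with 1153 and 901 at an unadjusted p under 0.05). limma-voom called none of all genes and DESeq2 called 16 and 14. At an unadjusted p under 0.05 there were 1 member in IP, Cebpd, and 2 in input, Cebpd and Tnfrsf12a. Cebpd was lower in PBS by 1.03 ± 0.25 in IP (edgeR adjusted p = 0.436) and by 0.99 ± 0.23 in input (edgeR adjusted p = 0.561), and the groups did not overlap in either. In IP the PBS libraries also lay wholly below AAV control for Stat3 and Tnfrsf1a, as they did for 6.09% of genes past the count filter. Without AAV control #3 the difference of Cebpd was -1.25 in IP (edgeR adjusted p = 0.013) and -1.21 in input (edgeR adjusted p = 9.5e-06). PBS libraries were a sequencing run of their own.

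In the comparison of IP with input, Tnfrsf1a, Il6st and Stat3 were called higher in IP in AAV control (3 of 7, with 13.3% of 9961 tested genes called higher) and in PBS (3 of 7, with 14.8% of 10401). In KA, leaving out Tnfrsf12a, 4 of 7 were called higher (Cebpd, Bcl3, Tnfrsf1a and Stat3, with 8.11% of 10098). Osmr was called higher in IP with the count filter in all 3 groups, where 14.2% of genes were in AAV control, 18% in PBS and 8.83% in KA. The log2 value of Il6st was 1.58 ± 0.22 in AAV control, 1.11 ± 0.15 in PBS and 0.87 ± 0.11 in KA, and that of Jak2 0.87 ± 0.24, 0.81 ± 0.17 and 0.22 ± 0.16. The KA effect on Jak2 and on Lifr was lower in IP than in input by 0.68 ± 0.24 (edgeR adjusted p = 0.048) and 0.74 ± 0.26 (edgeR adjusted p = 0.047) with the PBS baseline, but not with the count filter (0.176 and 0.145). With the AAV control baseline neither passed (edgeR adjusted p = 0.186 and 0.239), and Lifr did with the replicate block (0.032). For Tnfrsf1a that difference was -0.60 ± 0.30 (edgeR adjusted p = 0.223, and 0.012 with the replicate block). In the difference of KA effects, leaving out Tnfrsf12a, 1 of 6 members was called (Cebpd) with each baseline, where 5.1% of 9180 and 4.98% of 9305 tested genes were called higher. The call with the AAV control baseline is a description, since that baseline holds the comparison used to choose the genes.

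Of the ligand genes of these receptors, Osm, Il6, Lif and Tnfsf12 were low in both kinds of library. Levels of the others, those for TNFR1 included, are not given here. Of 4 listed TWEAK and TNF ligand genes, 0 passed the FPKM filter in IP against either control. Of 9 listed ligand genes of the OSM and LIF family, 1 was tested in input against PBS. It was called lower in KA (-1.11), as were 1.09% of all tested genes. Osm had 12, 1 and 5 counts in KA input (0.536, 0.0462 and 0.216 FPKM), at most 1 in AAV control input and 0 in PBS input, where a count of 0 allows up to 3. In IP it had at most 3 counts in any library. Il6 had at most 4 counts in any library. Lif had an FPKM of 0.833 ± 0.212 in KA IP, 0.502 ± 0.419 in AAV control IP and 0.315 ± 0.039 in PBS IP (SD, n = 3), below the filter. Tnfsf12, the TWEAK gene, was low throughout: its FPKM in IP was 1.19 ± 0.567 in KA, 2.96 ± 1.34 in AAV control and 2.26 ± 0.795 in PBS, and in input 1.93 ± 0.614, 1.67 ± 0.765 and 1.15 ± 0.029. Of the KA comparisons it passed the filter in input against PBS, where its log2 fold change was 0.72 ± 0.30 (edgeR adjusted p = 0.094).

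Around the members, 100 other genes of the pathways were listed. Of the 44 that passed the FPKM filter in IP against PBS, 12 were called higher and 2 lower, and against AAV control 11 of 44 were higher and 1 lower, beside 8.08% and 6.39% of all tested genes called higher. Most of these were listed as STAT3 targets. In that list of 16, 8 of 12 tested genes were called higher against PBS in IP, with a median log2 fold change of 2.18 (-0.01 over all tested genes), and 8 of 12 against AAV control, with a median of 2.01 (-0.02 over all). The largest were Timp1, a metalloprotease inhibitor gene (6.37 ± 0.22 against PBS, edgeR adjusted p = 1.7e-07), Serpina3n, a serine protease inhibitor gene (5.65 ± 0.30, edgeR adjusted p = 1.6e-06), and the intermediate filament gene Vim (4.14 ± 0.32, edgeR adjusted p = 1.8e-05). Serpina3n belongs to a family of closely related genes, between which reads can be split, so its value is uncertain. Gfap, the astrocyte filament gene, rose by 1.94 ± 0.49 against PBS (edgeR adjusted p = 0.011) and by 2.49 ± 0.33 against AAV control (edgeR adjusted p = 0.0026) in IP. In input 4 of 10 tested genes of the list were higher against PBS and 3 of 10 against AAV control, beside 4.26% and 2.52% of all tested genes, among them Gfap (3.12 ± 0.15 and 3.42 ± 0.29) and Vim (4.06 ± 0.19 and 3.63 ± 0.23). The list was written with earlier results of these data known, and its largest calls are named. It and its p-values are descriptions and not independent evidence of a direction.

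The other lists held few calls. They too were written with earlier results of these data known, and the genes named are the largest calls, so their p-values are descriptions. Of the receptor chains, Cntfr, which encodes the binding chain for ciliary neurotrophic factor, was lower in KA IP by 1.54 ± 0.22 against PBS (edgeR adjusted p = 5.9e-04) and by 1.52 ± 0.21 against AAV control (edgeR adjusted p = 0.0028), the 1 call among 2 tested genes. Of the other C/EBP genes, Cebpb, the 1 call among 3 tested, rose by 2.77 ± 0.29 (edgeR adjusted p = 1.1e-04) and 1.96 ± 0.29 (edgeR adjusted p = 0.0042). Of the TNF receptor family, Fas, a death receptor gene and the 1 call among 4 tested, rose by 2.44 ± 0.27 (edgeR adjusted p = 1.5e-04) and 2.08 ± 0.38 (edgeR adjusted p = 0.0096). Ctf1, which encodes the cytokine cardiotrophin, was called higher against AAV control (1.44 ± 0.37, edgeR adjusted p = 0.030) and did not pass the filter against PBS. Among adaptors and NF-kB genes, Tradd (1.28 ± 0.27) and Relb (1.07 ± 0.23) were called higher and Chuk (-1.52 ± 0.29) lower against PBS, and no gene of these lists was called against AAV control. The other JAK and STAT genes (3 tested) and the feedback and phosphatase genes (8 tested) held no call in IP against either control, with list medians between -0.33 and 0.19.

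**Figure D4:**
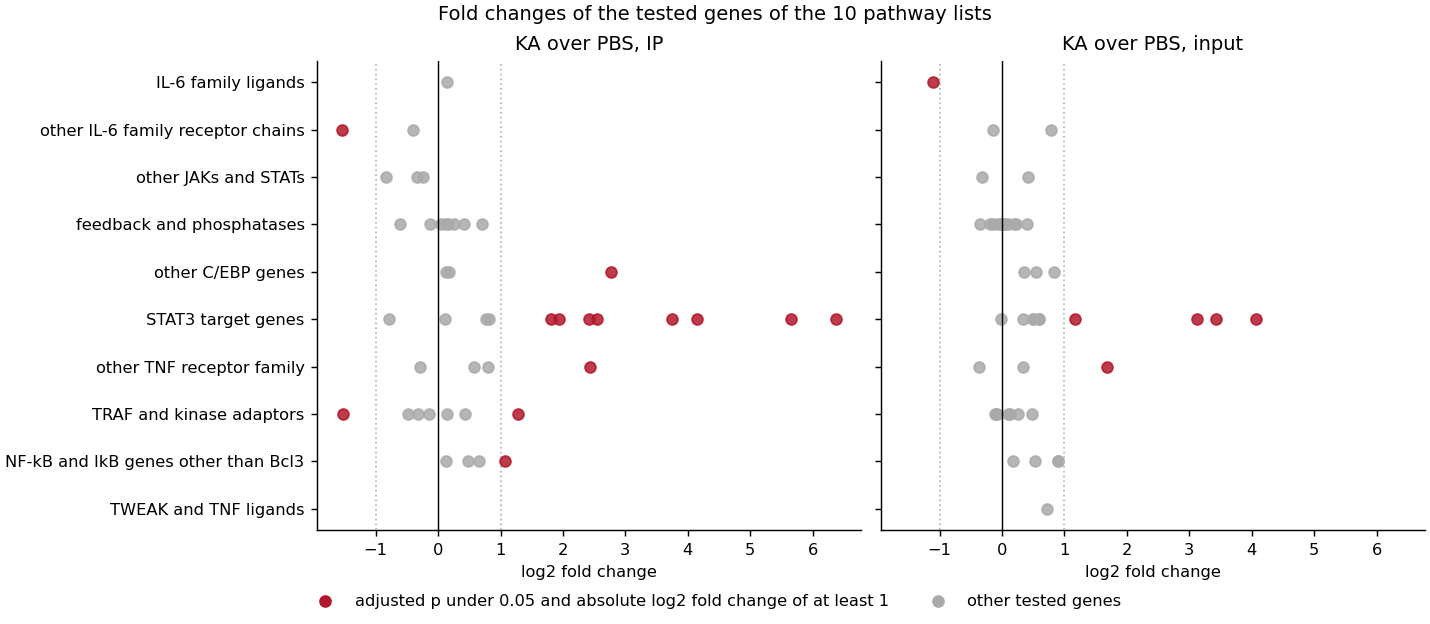
Log2 fold change of KA over PBS in IP and in input for each tested gene of the 10 pathway lists, with called genes in red and the others in grey. The calls with the largest values in both panels belong to the list of STAT3 targets, and the JAK, STAT and feedback lists hold no call.

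The genes whose pattern over the 18 libraries was most like that of a member were ranked by the root mean square difference of centred log2 CPM among 15731 genes. Those nearest to Tnfrsf12a were S1pr3 (0.51), Fbln5, Hpgd, Cela1 and Serpina3i (0.67). Those nearest to Osmr were P4ha3 (0.29), Glipr2, Cd9, Endou and Chil1 (0.40). Those nearest to Stat3 were 1810058I24Rik (0.16), Lamp2, Pth1r, Csf1 and Dnajc3 (0.18). Over the 9 IP libraries alone the nearest to Tnfrsf12a were Serpina3n (0.29) and S1pr3 (0.33), to Osmr Junb (0.13) and Ccdc3 (0.15) and to Stat3 Bag5 (0.08) and Dph6 (0.09). These are descriptions over libraries that share their groups.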

How the data were processed

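RNA of 9 pooled hippocampal samples (3 KA, 3 AAV control, 3 PBS) was measured as IP and input libraries. The authors aligned reads to mm10 with STAR, and the submitters' notes also list featureCounts and edgeR. Versions, annotation release and strand setting are not given in the sources used here. The authors deposited, per library, raw counts per gene symbol and FPKM values without replicate pooling. Dividing a deposited count by its library's total and by the FPKM gave 1 gene length (within 1%) in every library for all but 30 of 16124 genes checked.

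The quasi-likelihood test of edgeR 4.0.16 (R 4.3.3; TMM, Benjamini-Hochberg over all tested genes) was run on counts of those genes whose FPKM exceeded 1 in each library of a comparison. SE is the fold change divided by the root of F. Genes are named as all 10 members, at most the 3 largest calls of each pathway list, the ligands Osm, Il6, Lif and Tnfsf12, Gfap and Vim, and the 5 nearest in pattern. The members and lists were chosen with earlier results of these data known. Alternatives were RLE size factors, DESeq2 1.42.0, limma-voom (limma 3.58.1), no filter, a count filter (edgeR's filterByExpr, chosen after the data were seen), each sample left out, a replicate block and sequencing run as a covariate. IP and input of one number in a group share a homogenate, on which the main fit did not block. Same-numbered KA and AAV control residuals correlated at 0.348 to 0.551 in IP and 0.352 to 0.550 in input. Those samples also shared a sequencing run, and differently numbered samples were not compared, so pairing and run cannot be told apart. Same-numbered KA and PBS residuals, from different runs, correlated at -0.294 to 0.106 in IP. Replicates are separate pools of mice, and within one kind of library p-values measure the spread between pools. Where IP and input both enter, the main fit treated the 2 libraries of a pool as independent. The p-values there do not measure the spread between pools alone. Residuals of IP and input of one sample correlated at 0.480 to 0.648 in KA, 0.498 to 0.752 in AAV control and 0.155 to 0.326 in PBS. Totals of 7991681 to 16032180 counts limit low genes. On simulated counts for KA against AAV control in IP (9729 genes, 100 changed at each size), 96% of log2 changes of 2 and 31% of changes of 1 were recovered. A recovered gene had an adjusted p under 0.05 in the right direction, without the fold threshold, so recovery is not a share of calls. In the data 20.1% of genes had an adjusted p under 0.05, more than were changed here. For the difference of KA effects with the AAV control baseline (9180 genes) the recovered shares were 79% and 12%. Smaller differences were thus mostly missed in this simulation, which gave IP and input the same mean. Figures were drawn with matplotlib 3.10.9.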

Additional observations from a re-analysis of the deposited data

Results flagged for a closer look

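A test of the difference between the KA effect in IP and that in input passed for Cebpd with the AAV control baseline (2.45 ± 0.71 on the log2 scale, edgeR adjusted p = 0.041) and with the PBS baseline (2.43 ± 0.62, edgeR adjusted p = 0.011). The first is a description, since its baseline holds the comparison used to choose the genes. It did not pass with limma-voom. With 1 sample left out, the edgeR adjusted p reached 0.145 for the first and 0.057 for the second. The test also passed with the PBS baseline for Lifr (-0.74 ± 0.26, edgeR adjusted p = 0.047) and Jak2 (-0.68 ± 0.24, edgeR adjusted p = 0.048), where the effect was lower in IP and under the fold threshold. With the count filter neither passed (edgeR adjusted p = 0.145 and 0.176). For Tnfrsf12a the difference was 2.68 ± 0.53 with the AAV control baseline and 2.59 ± 0.29 with the PBS baseline. It is a description, since the gene was chosen for its rise. Groups of 3 samples are too small for a search for single outlying libraries.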

How the results depend on the processing

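Without the FPKM filter or with the count filter, more members could be tested and more were called: 6 and 6 in place of 3 for KA against AAV control in IP, 7 and 7 in place of 3 against PBS in IP, and 5 and 5 in place of 2 against AAV control in input. The member counts are descriptions: they include Tnfrsf12a, Socs3 and Bcl3, which have no test in these comparisons. The genes added besides Socs3 and Bcl3 were Osmr in each and Stat3 against PBS in IP. Without a filter there were also 1 in place of 0 for PBS against AAV control in IP and 5 in place of 3 for IP against input in AAV control. Of all genes 253 of 37249 and 4965 of 31504 were called there, in place of 0 of 10667 and 2626 of 9961. With limma-voom, 1 in place of 2 members was called in the difference of KA effects with the AAV control baseline (Cebpd no longer passed), where 851 in place of 865 of 9180 genes were. The counts below also include Tnfrsf12a. Leaving out 1 sample gave 3 to 3 calls for KA against PBS in IP and for IP against input in AAV control and PBS. It gave 2 to 2 and 3 to 4 in input against AAV control and PBS and 0 to 1 for PBS against AAV control in IP and in input. It gave 4 to 5 for IP against input in KA and 1 to 2 for both differences of KA effects. The shares of all genes called in these fits are not given here, so nothing is read from these counts.

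These signs turned, and the cause was not tested. Without a filter and with the count filter they were those of Il6st in IP (0.030 and 0.018), Lifr (-0.026 and -0.0083) and Jak2 (-0.023 and -0.0059) in input for KA against AAV control, and Stat3 in the difference with the PBS baseline (0.16 and 0.10), and, without a filter, Cebpd for IP against input in PBS (-0.0084). With 1 sample left out, values ranged over 0 for KA against AAV control for Il6st in IP (-0.25 to 0.075) and in input for Lifr (-0.16 to 0.11) and Jak2 (-0.21 to 0.14). For PBS against AAV control they did so in IP for Lifr (-0.34 to 0.035) and Tnfrsf12a (-1.12 to 0.10) and in input for Lifr (-0.28 to 0.00013), Jak2 (-0.29 to 0.074) and Tnfrsf1a (-0.20 to 0.18). For IP against input they did so for Tnfrsf12a in AAV control (-0.93 to 0.13) and PBS (-0.55 to 0.17), Cebpd in PBS (-0.022 to 0.20) and Jak2 in KA (-0.010 to 0.32). In the differences of KA effects they did so for Socs3 (-0.0069 to 0.81) and Bcl3 (-1.25 to 0.14) with the AAV control baseline and for Stat3 (-0.17 to 0.014) and Osmr (-0.29 to 0.064) with the PBS baseline.

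The replicate block moved no member past or below both thresholds. For KA against PBS in IP, where same-numbered samples came from different sequencing runs, Jak2 and Lifr no longer passed the adjusted threshold with it (0.072 and 0.071). Of the member values under other settings, 499 of those with a sample left out and 608 of the others kept their direction and their side of the threshold. Low counts limit Socs3, Bcl3 and Osmr in control libraries, and p-values of the fit without a filter were not used.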
